A study of Mus musculus with 4 samples.

Results

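Of 42006 array probes, 727 gave a Cy3 signal from adult mouse footpad well above background on both arrays of WT, of Tabby or of both while their Cy5 signal, from a reference pool of cultured-cell RNA, was not well above background on any of the 4 arrays. Both criteria are flags that the scanner software sets for each spot and channel. The probes were thus chosen on measured values, and their brightness in footpad against reference is a description, not a result of a test. The array files give each probe as an ID and a sequence of 60 bases and repeat the ID in place of a gene name, so the probes are named by ID.

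The study compared 2 wild-type (WT) with 2 Tabby footpad samples, all male C57BL/6, on 2-colour Agilent arrays to look for genes that depend on Eda in sweat glands. The labels give an age of 9 weeks for WT 1, WT 2 and Tabby 2 and 10 weeks for Tabby 1, whereas the series text gives 8 weeks, and the stage field of WT 1 alone reads P5 although its title and age say adult. The labels list the Tabby samples as a gene knock out, do not say whether each sample was 1 animal or a pool, and put footpad RNA in Cy3 and the reference in Cy5 throughout, so no array had swapped dyes. The reference mixed RNA of established cultures from embryo, fibroblast, kidney, liver, macrophage, lymphocytes, mammary gland, myoblast, skin and testis with RNA of 129ES cells, and the same mix was used for both genotypes.

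Eda makes ectodysplasin, a ligand related to tumour necrosis factor, which acts through its receptor Edar and the adaptor Edaradd on NF-kB during the formation of hair, teeth and sweat glands. Tabby is a mutation of the X-linked Eda gene, and Tabby mice are known to lack the sweat glands that wild-type mice carry in the footpads. A footpad also holds thick cornified epidermis, fat, vessels, nerves and muscle of the paw, and mature cells of such kinds can make transcripts that dividing cultures make little of.

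The sequences of the probes that carry the results are given 5′ to 3′ as the array design lists them. The first set holds the 11 probes of the 727 that passed the test of Tabby against WT. The first of them fell and the next 4 rose, all 5 with footpad signal well above background on all 4 arrays, and the last 6 fell but lacked such a signal on 1 or both Tabby arrays. These are whole probes with no stretch singled out, so they are in lower case throughout.
Z00047905-1: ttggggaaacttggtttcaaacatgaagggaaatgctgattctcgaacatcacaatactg
Z00030120-1: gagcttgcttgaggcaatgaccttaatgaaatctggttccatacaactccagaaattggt
Z00056858-1: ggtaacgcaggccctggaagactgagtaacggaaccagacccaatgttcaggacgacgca
Z00047134-1: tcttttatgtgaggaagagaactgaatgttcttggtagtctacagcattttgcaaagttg
Z00024380-1: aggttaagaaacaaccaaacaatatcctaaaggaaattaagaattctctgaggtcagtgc
Z00041684-1: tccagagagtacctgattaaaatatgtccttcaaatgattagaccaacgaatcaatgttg
Z00027353-1: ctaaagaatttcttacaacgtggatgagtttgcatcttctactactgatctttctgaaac
Z00051777-1: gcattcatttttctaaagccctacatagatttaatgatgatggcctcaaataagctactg
Z00012935-1: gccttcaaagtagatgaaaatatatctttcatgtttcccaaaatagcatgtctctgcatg
Z00019810-1: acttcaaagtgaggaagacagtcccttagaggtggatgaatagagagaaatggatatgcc
Z00037480-1: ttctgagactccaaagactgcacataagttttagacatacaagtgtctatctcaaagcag

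The second set holds the 6 probes brightest in footpad over the reference, which show what the choice of probes picks out most strongly. None of them passed the test of Tabby against WT.
Z00025980-1: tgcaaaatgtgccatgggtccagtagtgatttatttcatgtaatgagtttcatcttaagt
Z00061870-1: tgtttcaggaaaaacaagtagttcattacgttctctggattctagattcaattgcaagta
Z00042178-1: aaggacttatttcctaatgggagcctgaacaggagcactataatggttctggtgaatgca
Z00026888-1: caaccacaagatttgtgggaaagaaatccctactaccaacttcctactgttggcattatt
Z00048880-1: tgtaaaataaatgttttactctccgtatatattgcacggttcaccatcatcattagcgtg
Z00026523-1: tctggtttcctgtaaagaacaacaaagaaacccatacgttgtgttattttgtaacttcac

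The third set holds 2 probes well above background on both Tabby arrays and on no WT array.
Z00053131-1: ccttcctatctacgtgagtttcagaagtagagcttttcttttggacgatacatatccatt
Z00028872-1: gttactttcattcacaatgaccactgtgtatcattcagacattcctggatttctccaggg

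The last set holds probes of the 727, each with a probe outside the 727 that shares 51 or more of its 60 bases, and shows what a second spot of nearly the same sequence read. Capitals mark the shared stretch. The last 2 lines each give the sequence of a pair of identical probes.
Z00054578-1: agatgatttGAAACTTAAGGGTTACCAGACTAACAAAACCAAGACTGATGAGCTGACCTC
Z00025612-1: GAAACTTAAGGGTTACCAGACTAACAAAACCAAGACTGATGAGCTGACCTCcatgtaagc
Z00073718-1: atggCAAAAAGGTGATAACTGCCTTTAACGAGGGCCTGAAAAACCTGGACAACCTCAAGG
Z00073006-1: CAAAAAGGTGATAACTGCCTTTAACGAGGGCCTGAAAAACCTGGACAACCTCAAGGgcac
Z00034409-1: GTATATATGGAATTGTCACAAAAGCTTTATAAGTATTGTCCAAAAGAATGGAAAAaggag
Z00077563-1: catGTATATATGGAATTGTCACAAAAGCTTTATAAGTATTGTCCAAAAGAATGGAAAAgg
Z00070655-1 and Z00054665-1: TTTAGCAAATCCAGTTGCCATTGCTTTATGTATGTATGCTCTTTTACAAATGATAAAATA
Z00076883-1 and Z00077082-1: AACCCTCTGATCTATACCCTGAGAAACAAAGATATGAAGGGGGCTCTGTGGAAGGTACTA

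The label "absent from the reference" was not borne out for most of the 727 probes. A weaker flag of the same software, which marks a Cy5 signal as positive and significantly above its local background, was set on all 4 arrays for 250 probes (34.4%), on 3 arrays for 173, on 2 for 119, on 1 for 88 and on none for 97 (13.3%). Among the 153 negative-control spots, that flag was set for 6 to 9 per array. Most of the 727 probes are therefore described here as dim in the reference, not absent from it. The selection also cut through a continuous range of Cy5 brightness. The mean log2 Cy5 level of the 727 probes ranged from 5.61 to 6.18 with a median of 5.98, and that of the 277 probes just outside, which were well above background in Cy5 on 1 array only, ranged from 5.72 to 6.58 with a median of 6.07. On both sides of the threshold the probes were dim, and their ranges overlapped over most of their length.

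The footpad signal of these probes was also modest. The median log2 Cy3 level of the 727 probes was 6.47 and 6.43 in WT 1 and WT 2, and 6.45 and 6.41 in Tabby 1 and Tabby 2. These levels are log2 intensities after background correction and normalization, and the lowest signal called well above background on an array lay between 5.94 and 6.04. Most of the probes thus lay close to the detection limit. Negative controls were called well above background in Cy3 at 1 spot of 153 on Tabby 2 and at none on the other arrays.

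Footpad signal was well above background on all 4 arrays for 479 of the 727 probes (65.9%), against 26196 of the 27648 other probes that passed the same Cy3 filter (94.75%). Another 124 were well above background on both WT arrays and 1 Tabby array, 69 on both WT arrays and no Tabby array, 45 on both Tabby arrays and 1 WT array, and 10 on both Tabby arrays and no WT array. The arrays did not detect these probes equally. WT 1 detected 97.8% of the 727, WT 2 93.3%, Tabby 1 89.1% and Tabby 2 74.8%. Where 1 Tabby array detected a probe, it was Tabby 1 for 114 and Tabby 2 for 10, and where 1 WT array did, it was WT 1 for 39 and WT 2 for 6. Tabby 2 also detected the smallest share of all 42006 probes, 64.7% in Cy3 against 67.4% to 72.1% on the other arrays, and 67.4% in Cy5 against 72.7% to 75.1%. The part of array sensitivity in the split of these probes by genotype was not tested. Probes seen in 1 genotype are given below by their levels.

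Tabby was compared with WT in the Cy3 channel by limma's moderated test over all 28373 tested probes, with Benjamini-Hochberg adjustment and a threshold of 0.05. Among the 727 probes, 7 fell and 4 rose in Tabby. Over all tested probes 343 fell (1.21%) and 25 rose (0.0881%). The 277 probes well above background in Cy5 on 1 array only were about as dim in footpad. Their median log2 Cy3 level was 6.45, and that of the 727 was 6.44. Of the 277, 4 fell (1.44%) and 2 rose (0.722%), beside 0.963% and 0.550% of the 727. The comparison was also read on the 479 probes detected on all 4 arrays, because a probe that entered through 1 genotype had to differ. This filter is not neutral either. A dim probe with a large difference can lose detection in the lower genotype and leave the set, and 6 falls lie outside the 479. The median log2 Cy3 level was 6.61 for the 479 and 9.30 for the other probes detected on all 4 arrays. Among the 479, 1 probe fell and 4 rose, where 310 of all 26673 tested probes detected on all 4 arrays fell (1.16%) and 22 rose (0.0825%). No test was run of whether this split differs from that of the other probes. Of the other 26194 such probes, 309 fell and 18 rose. The median Tabby minus WT difference was 0.018 log2 for the 479 and 0.026 log2 for the other probes. With both genotypes at 2 samples, each p-value reflects only how these samples vary, which may be technical, and an exact permutation test of a single probe could not go below a two-sided p of 0.333. On the single slide WT took positions 1 and 2, and Tabby took positions 3 and 4, so position and genotype cannot be told apart.

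Counts of calls moved when 1 sample was left out. Such a fit leaves 1 sample in 1 genotype, so its residual variance comes from the 2 samples of the other genotype alone. This holds for every fit with a left-out sample given below. For all probes that passed the Cy3 filter, the median SD between samples was 0.074 log2 in WT and 0.13 log2 in Tabby. The part of each left-out sample in the counts was not tested. Without WT 1, 3 of the 727 probes fell and 0 rose, and without WT 2, 6 fell and 1 rose. Without Tabby 1 the counts were 25 falls and 14 rises, and without Tabby 2 they were 27 falls and 43 rises. Over all tested probes 108 fell and 1 rose without WT 1, and 172 fell and 18 rose without WT 2. The counts over all tested probes were 1070 falls and 567 rises without Tabby 1, and 1381 falls and 1294 rises without Tabby 2. At an unadjusted p under 0.05 by limma, 31 of the 479 probes were lower and 30 higher in Tabby, beside 1946 lower and 1377 higher of all 26673 tested probes detected on all 4 arrays.

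Z00047905-1 fell most of the 479 probes. Its log2 Cy3 level was 10.41 and 10.63 in WT 1 and WT 2, and 6.90 and 7.15 in Tabby 1 and Tabby 2. Both WT samples were bright and both Tabby samples dim, with a gap between the groups far wider than the spread within either, and footpad signal was still well above background on both Tabby arrays. The difference was −3.50 log2 (SE 0.15), an 11.3-fold lower signal in Tabby (limma, adjusted p = 0.00248). It passed the threshold in each of the 15 alternative settings that tested it, with differences from −4.10 to −2.56 log2. Its level over the 4 arrays was at least 7.91-fold above the reference. In whole footpad RNA, fewer cells of a type and less RNA per cell cannot be told apart. No other probe shared 20 or more bases with it, so the fall rests on 1 probe.

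Of the 4 rises, that of Z00030120-1 was the widest. Its log2 Cy3 level was 7.67 and 7.13 in WT and 8.82 and 8.79 in Tabby. The WT samples differed from each other by more than the Tabby samples did, and the groups did not overlap. The difference was 1.41 log2 (SE 0.20), 2.65-fold (limma, adjusted p = 0.0479).

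Z00056858-1 had levels of 6.91 and 6.89 log2 in WT and of 8.13 and 7.88 log2 in Tabby, and rose 2.15-fold (SE 0.13 log2, limma adjusted p = 0.028). Z00047134-1 had levels of 6.60 and 6.35 log2 in WT, near the detection limit, and of 7.53 and 7.50 log2 in Tabby, and rose 2.05-fold (1.04 log2, SE 0.13, limma adjusted p = 0.0335). Z00024380-1 had levels of 8.32 and 8.40 log2 in WT and of 9.32 and 9.23 log2 in Tabby, and rose 1.89-fold (0.92 log2, SE 0.11, limma adjusted p = 0.0313). In all 3 probes both Tabby samples lay above both WT samples. Over the alternative settings the difference ran from 0.98 to 1.83 log2 for Z00056858-1 and from 0.91 to 2.35 log2 for Z00047134-1. It ran from 0.33 to 1.12 log2 for Z00024380-1 and from 0.73 to 1.93 log2 for Z00030120-1.

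None of the 4 rises passed the threshold when a WT sample was left out. Without WT 1 the adjusted p by limma was 0.0567 for Z00030120-1, 0.288 for Z00056858-1, 0.189 for Z00047134-1 and 0.428 for Z00024380-1. Without WT 2 it was 0.141, 0.219, 0.277 and 0.255 in the same order. The direction was higher in Tabby in each of these fits. Other settings ended the call of 3 of them. Z00024380-1 missed the threshold with the scanner's processed signal scaled to the 75th percentile (limma, adjusted p = 0.0515), with the arrays set to equal medians (0.0836) and for the ratio of footpad to reference (0.0885). Z00047134-1 missed it for that ratio (limma, adjusted p = 0.0517) and with no filter on dim probes (0.0573), and Z00030120-1 with no such filter (0.100). In the authors' value table, which holds 3 of the 4 probes, none of the 3 passed (adjusted p from 0.152 to 0.746).

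The closest probes to the threshold among the brighter ones are given because they show how the 4 samples were spread, and were chosen after their values were seen. Z00051322-1 had levels of 8.08 and 8.64 log2 in WT and of 9.66 and 9.78 log2 in Tabby, 1.36 log2 higher in Tabby (limma, adjusted p = 0.0574). Z00026843-1 had levels of 9.40 and 9.48 log2 in WT and of 8.68 and 8.16 log2 in Tabby, 1.02 log2 lower in Tabby (limma, adjusted p = 0.115). Neither pair of groups overlapped, and neither difference passed the threshold.

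The other 6 falls were probes without a footpad signal well above background on all 4 arrays. They passed the filter through WT, where they are high, so their calls describe the selection and neither their count nor their p-values support a direction. Their Tabby levels lay at or near the detection limit. Where no Tabby array was well above background, the fall is given as a bound, the mean WT level against the higher, on each Tabby array, of the lowest detected signal and the probe's own signal. Bounds of probes detected in Tabby alone were formed in the same way. Such a bound covers only the detection limit in the main fit, not the spread of samples or other processing. It equals the fitted fold where the probe's own signals lay above the lowest detected signal.

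Z00041684-1 had levels of 8.09 and 7.79 log2 in WT and of 5.86 and 5.92 log2 in Tabby. In the main fit it was at least 3.80-fold lower in Tabby (limma, adjusted p = 0.00581). This was the largest bound of the 69 probes detected in both WT samples and in no Tabby sample. The fitted difference of −2.05 log2 ran from −6.92 to −1.79 log2 over the alternative settings, so the bound holds for the main fit alone. Since the probe entered through its WT signal alone, the p-value is no support for the fall. For so dim a Tabby signal the fitted size depends on how background was handled.

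Z00051777-1 had levels of 7.90 and 7.54 log2 in WT and of 5.95 and 6.04 log2 in Tabby. In the main fit it was at least 3.27-fold lower in Tabby (limma, adjusted p = 0.0119). Over 15 alternatives its difference ran from −6.61 to −1.475 log2, and it missed the threshold under 1 of them. Z00012935-1 had levels of 7.50 and 7.30 log2 in WT and of 6.06 and 6.04 log2 in Tabby. It was 2.55-fold lower, with bound and fitted fold the same (limma, adjusted p = 0.0119). Over 13 alternatives its difference ran from −4.73 to −1.13 log2, and it missed the threshold under 2 of them. The Tabby samples of both probes lay close together at the detection limit.

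The 3 remaining falls lie outside the rule for named probes and are given after their values were seen, to complete the 7. Z00027353-1 had levels of 7.88 and 8.56 log2 in WT and of 6.05 and 6.22 log2 in Tabby, with 1 Tabby array well above background, and was 2.08 log2 lower in Tabby (limma, adjusted p = 0.0251). Z00037480-1 had levels of 7.22 and 7.13 log2 in WT and of 6.11 and 6.10 log2 in Tabby. It was 2.10-fold lower, with bound and fitted fold the same (limma, adjusted p = 0.0179). Over 13 alternatives its difference ran from −4.51 to −0.86 log2, and it missed the threshold under 3 of them. Z00019810-1 had levels of 7.69 and 7.22 log2 in WT and of 6.13 and 6.18 log2 in Tabby, with 1 Tabby array well above background, and was 1.30 log2 lower (limma, adjusted p = 0.0466, 0.253 without WT 1 and 0.0548 without WT 2). Z00027353-1 missed the threshold under 5 of 15 alternatives, with an adjusted p of up to 0.125 by limma.

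Of the 69 probes detected in both WT samples and in no Tabby sample, 2 more were among the 5 with the largest bounds. Their lower Tabby level is likewise fixed in part by the choice of probes and is given as a description. Z00061259-1 had levels of 7.92 and 7.26 log2 in WT and of 6.17 and 6.06 log2 in Tabby. It was 2.79-fold lower, with bound and fitted fold the same (limma, adjusted p = 0.0637). Z00072586-1 had levels of 7.42 and 6.93 log2 in WT and of 5.94 and 5.88 log2 in Tabby, at least 2.24-fold lower (limma, adjusted p = 0.0539). The groups did not overlap in either. Both missed the threshold, but Z00061259-1 passed it in 7 and Z00072586-1 in 9 of 14 alternative settings, with adjusted p by limma from 0.00868 to 0.207 and from 0.00648 to 0.288.

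None of the 10 probes detected in both Tabby samples and in no WT sample passed the test by limma, and 2 of them had an unadjusted p under 0.05. The largest bound was that of Z00053131-1, with levels of 6.02 and 6.14 log2 in WT and of 7.14 and 6.43 log2 in Tabby. It was 1.63-fold higher in Tabby, with bound and fitted fold the same (limma, adjusted p = 0.35). Its 2 Tabby samples differed by more than Tabby 2 differed from WT 2. Z00028872-1 had levels of 5.86 and 5.91 log2 in WT and of 6.59 and 6.25 log2 in Tabby, at least 1.36-fold higher (limma, adjusted p = 0.271). The next 3 bounds were 1.17-fold for Z00033550-1, 1.15-fold for Z00022755-1 and 1.13-fold for Z00031086-1, all within a narrow band above the detection limit. All 10 probes passed the filter through Tabby alone, so their higher Tabby level was fixed in part by the choice of probes. Their p-values are no support for a rise. Without Tabby 2, the sample with the lower level in both, the difference was 1.055 log2 for Z00053131-1 and 0.7055 log2 for Z00028872-1. Without Tabby 1 it was 0.3454 and 0.3615 log2 in the same order. With all 4 samples it was 0.70 and 0.53 log2.

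The values that chose the probes also describe how far footpad stood above the reference. Since footpad and reference always had the same dye, this ratio is open to dye bias, and it is a bound because the reference was not well above background. The bound reached 2-fold for 143 of the 727 probes and 8-fold for 26, and its median was 1.37-fold. For most of the 727 probes the bound was thus small on this scale. An offset of 50 was added to both channels, which draws the ratio of dim signals toward 1. Uncorrected Cy3 medians of the 727 were 66.6 to 77.6 by array, with 47.4 to 50.4 at negative controls. The Cy5 medians were 56.3 to 57.6, with 47.9 to 49.7 at negative controls.

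Z00025980-1 stood highest. Its log2 Cy3 level was 12.30 and 12.43 in WT and 11.95 and 12.27 in Tabby, while its log2 Cy5 level was 5.65, 5.66, 5.65 and 5.83 on the same arrays. The footpad level was at least 91.0-fold above the reference, and all 4 footpad samples were bright. Tabby was 0.25 log2 lower (SE 0.15, limma adjusted p = 0.564), with Tabby 2 close to WT 1.

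Z00061870-1 had footpad levels of 11.33 and 11.28 log2 in WT and of 11.81 and 11.64 log2 in Tabby, at least 53.7-fold above the reference. Z00042178-1 had levels of 11.14 and 11.34 log2 in WT and of 11.44 and 11.32 log2 in Tabby, at least 48.0-fold above it. Z00026888-1 had levels of 10.94 and 11.22 log2 in WT and of 11.44 and 11.23 log2 in Tabby, at least 44.7-fold above it. Tabby and WT overlapped for Z00042178-1, whereas for the other pair both Tabby samples lay above both WT samples. Z00048880-1 had levels of 11.35 and 11.44 log2 in WT and of 11.05 and 10.96 log2 in Tabby, at least 44.3-fold above the reference. Z00026523-1 had levels of 10.75 and 10.64 log2 in WT and of 11.15 and 11.60 log2 in Tabby, at least 39.6-fold above it. None of the 6 brightest differed between genotypes at the threshold (limma, adjusted p from 0.234 to 0.708), and their differences ran from −0.39 to 0.68 log2. Left-out samples moved these differences, given here for 2 of the 6. Z00026523-1 was 0.90 log2 higher in Tabby without Tabby 1 and 0.46 log2 higher without Tabby 2. Z00061870-1 was 0.33 log2 higher in Tabby without Tabby 1 and 0.50 log2 higher without Tabby 2.

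All 26 probes at least 8-fold above the reference were well above background in footpad on all 4 arrays, and they also belong to the 1128 array probes that reach 8-fold. The difference was above 0, that is higher in Tabby, for 21 of the 26, with a median of 0.29 log2, and 1 of them, Z00024380-1, passed the test. The other 1102 probes that reach 8-fold had a median of 0.19 log2, with 768 above 0 (69.7%), and of these 1102 probes 20 fell and 3 rose at the threshold. Over all probes detected on all 4 arrays 55.4% were above 0, with a median of 0.025 log2. Thus a shift above 0 was seen in the 26 and in the 1102 probes, and the difference between these 2 sets was not tested. With left-out samples the median of the 26 ran from 0.13 log2 without Tabby 1 to 0.35 log2 without Tabby 2. In the authors' value table the median of the 16 probes it holds was 0.070 log2, with 10 above 0, against 0.23 log2 and 19 of 26 for the ratio of footpad to reference.

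A few probes were uneven between samples of 1 genotype. Among the 479 probes, Tabby 1 lay at least 0.5 log2 above each of the other 3 arrays at 20 probes, Tabby 2 at 3, WT 1 at 1 and WT 2 at 0. Over all probes detected on all 4 arrays the counts were 687, 353, 91 and 21, so Tabby 1 was high on its own at 4.18% of the 479 and 2.58% of all such probes. The median SD between samples of the 479 was 0.067 log2 in WT and 0.12 log2 in Tabby. For all probes detected on all 4 arrays it was 0.075 log2 in WT and 0.14 log2 in Tabby. Of all 727 probes, 9 were 2-fold or more apart between the Tabby samples, all 9 higher in Tabby 1, and 3 were 2-fold or more apart between the WT samples. Over all probes that passed the Cy3 filter 399 were 2-fold or more apart between the Tabby samples, 279 higher in Tabby 1 and 120 higher in Tabby 2, and 60 were so between the WT samples. An example, chosen after its values were seen, is Z00024839-1, with levels of 9.63 and 9.74 log2 in WT and of 11.29 and 10.01 log2 in Tabby. Its mean difference of 0.97 log2 did not pass the test (limma, adjusted p = 0.427), and it came mostly from Tabby 1. Tabby 1 is the sample of 10 weeks, and the part of age in this spread was not tested.

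A sample low on its own was less frequent. WT 1 was at least 0.5 log2 below each other array at 4 of the 479 probes, WT 2 at 2, Tabby 1 at 2 and Tabby 2 at 4, and over all probes detected on all 4 arrays the counts were 101, 39, 291 and 314. The 4 probes low in WT 1, chosen after their values were seen, are described because 1 of them has a second spot of nearly the same sequence. Z00012052-1 had levels of 8.40 and 9.37 log2 in WT and of 9.90 and 9.43 log2 in Tabby. Z00030743-1 had levels of 8.99 and 9.85 log2 in WT and of 10.36 and 10.17 log2 in Tabby. Z00054578-1, printed above with its overlapping partner, had levels of 9.12 and 9.89 log2 in WT and of 10.30 and 10.14 log2 in Tabby. In all 3, WT 2 lay closer to Tabby than to WT 1, and the fourth was Z00051322-1, described above. The 4 probes also stood at least 8-fold above the reference.

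Spots of overlapping sequence gave a second reading for 30 of the 727 probes, which shared at least 20 identical bases on the same strand with another probe. Of these, 12 formed 6 pairs among the 727, and 18 overlapped 24 probes outside them. Of the 24 partners, 13 passed the Cy3 filter and 11 did not. Of the 13, 7 were well above background in Cy5 on all 4 arrays and 6 on 1 to 3 arrays. Where the partner differs in the rest of its sequence it can read other transcripts, so only long overlaps are described in full.

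Z00054578-1 shared 51 bases with Z00025612-1. The partner had footpad levels of 11.33 and 12.05 log2 in WT and of 12.18 and 12.22 log2 in Tabby. WT 1 was the lowest of the 4 samples in both probes and WT 2 lay near Tabby in both, so the low level of WT 1 was read by 2 spots. Tabby was 0.71 log2 higher than WT in Z00054578-1 and 0.51 log2 higher in the partner. The partner was well above background in Cy5 on Tabby 1 alone, which is what left it outside the 727.

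Z00034409-1 shared 55 bases with Z00077563-1, which was well above background in Cy5 on 3 arrays. It had footpad levels of 6.38 and 6.52 log2 in WT and of 6.41 and 6.46 log2 in Tabby, and the partner had 6.56 and 6.57 log2 in WT and 6.52 and 6.63 log2 in Tabby. The genotypes overlapped in both probes.

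Z00073718-1 shared 56 bases with Z00073006-1, and both read lowest in Tabby 2. Tabby was 0.22 log2 lower than WT in the first and 0.52 log2 lower in the second, which was well above background in Cy5 on Tabby 1 alone.

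The 2 pairs of identical probes show how far the selection depends on single flags. Z00070655-1 had footpad levels of 6.49 and 6.26 log2 in WT and of 6.87 and 6.22 log2 in Tabby, and its identical spot Z00054665-1 had 6.56 and 6.36 log2 in WT and 6.92 and 6.43 log2 in Tabby. Z00076883-1 had 6.33 and 6.12 log2 in WT and 6.15 and 6.38 log2 in Tabby, and its identical spot Z00077082-1 had 6.34 and 6.35 log2 in WT and 6.29 and 6.44 log2 in Tabby. The largest gap between identical spots of 1 array was that of WT 2 in the second pair. Of each pair 1 probe fell inside the 727 and the other outside, because the other was well above background in Cy5 on WT 1 in the first pair and on WT 1 and Tabby 2 in the second.

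Some probes could be placed by sequence. The 727 sequences were matched to the RefSeq start windows of GRCm38.p6, which run from 250 bases before to 50 after the start of a gene, and to its miRNA hairpins, asking for at least 30 identical bases. Of the 727, 8 matched a start window and 0 a hairpin, against 331 of the other 27648. The windows cover only the starts of genes, so no match says nothing about the remaining probes. None of the 8 passed the test of Tabby against WT.

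On the strand of the gene, Z00066913-1 matched 45 bases of Uty, a Y-linked gene of the histone demethylase family, at chrY:1245710-1245754, just after its start. It had levels of 6.17 and 6.26 log2 in WT and of 6.22 and 6.08 log2 in Tabby. Z00032440-1 matched 30 bases after the start of Hspa1a, which encodes a stress-induced chaperone of the HSP70 family, at chr17:34972107-34972136. It had levels of 6.54 and 6.37 log2 in WT and of 6.62 and 6.33 log2 in Tabby. Hspa1a has a near-identical neighbouring copy, Hspa1b, and the probe may read both. Z00077581-1 matched 39 bases after the start of H2ab2, a histone H2A variant gene, at chrX:116681189-116681227. It had levels of 6.29 and 6.18 log2 in WT and of 6.27 and 6.32 log2 in Tabby. In each of these 3 probes the genotypes overlapped close to the detection limit.

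Z00067181-1 matched 49 bases after the start of Gm36608 on its strand at chr19:3708119-3708167, and the same probe lies upstream of 1810055G02Rik on the opposite strand. It had levels of 6.54 and 6.60 log2 in WT and of 7.26 and 6.50 log2 in Tabby, high in Tabby 1 alone. The other matches lay upstream of a start. Z00025491-1 matched 54 bases on the strand of Tpsg1, a mast cell tryptase gene, at chr17:25369023-25369076. It had levels of 6.34 and 6.33 log2 in WT and of 6.35 and 6.46 log2 in Tabby. Z00066642-1 matched whole at chr2:68472883-68472942 on the strand of Gm13596 and had 6.27 and 6.24 log2 in WT and 6.06 and 6.09 log2 in Tabby, where neither Tabby array was well above background. On the opposite strand, Z00028128-1 matched whole at chr12:31351548-31351607 upstream of Dld, which encodes dihydrolipoamide dehydrogenase, and Z00066401-1 at chr14:21741632-21741691 upstream of Dusp13, a dual-specificity phosphatase gene. Z00028128-1 had 6.23 and 6.22 log2 in WT and 6.24 and 6.27 log2 in Tabby, and Z00066401-1 had 6.45 and 6.57 log2 in WT and 6.71 and 6.67 log2 in Tabby. A probe upstream of a start or on the other strand does not match the transcript that starts there.

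The 727 sequences were poorer in G and C than the other detected probes. Their median GC content was 41.7%, against 45.0% for the other 27648 probes that passed the Cy3 filter and 41.7% for the 13631 that did not pass it. The gap held within each of 4 classes of near-equal numbers of the 727 by mean footpad level. The medians of the 727 were 41.7%, 43.3%, 40.0% and 40.0% from the dimmest class to the brightest, and those of the other probes were 45.0% in each. The 11 called probes ran from 35.0% to 56.7% with a median of 36.7%. Runs of 6 or more of the same base occurred in 4.40% of the 727 and in 4.81% of the other probes. The part of GC content in the selection was not tested.

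The 727 probes were spread over the array. Of 16 equal blocks of the array, the fullest held 9.08% of them and the emptiest 4.54%. An even spread gives 6.25%, and the fullest block of all passing probes held 6.68%. The authors' value table holds 415 of the 727 (57.1%) and 62.4% of the other probes. The rule behind its choice of spots is not known here.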

How the data were processed

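RNA of 4 footpad samples was hybridised with a common reference on 2-colour arrays. Scanning output came from Agilent Feature Extraction 9.5.1.1, per the file headers. The deposited files hold raw spot and background intensity, and a processed intensity with background subtracted and dyes normalized. The deposited value table of the authors is on a log10 scale. At the median over spots, its values matched log10 footpad minus log10 reference plus the reference's log10 mean over arrays (median absolute difference at most 3.75e-05 on each array). Its column medians were 2.60, 2.60, 2.59 and 2.60 for WT 1, WT 2, Tabby 1 and Tabby 2.

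With limma 3.58.1 in R 4.3.3, intensities were corrected with normexp (offset 50), normalized by loess within arrays with weight 0 for the 1417 control spots, then by Aquantile between arrays. Outlier spots (1 to 9 per array) were left out and the 5 copies of 7 repeated probes averaged. The log2 Cy3 level was fitted with group alone (lmFit, eBayes) over 28373 probes, 2 of 28375 having no value in a group, and Benjamini-Hochberg adjusted. Its prior SD was 0.13 log2, with 3.40 prior degrees of freedom. The fit was tested on simulated data.

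The footpad over reference bound sets the mean Cy3 level against, per array, the higher of the lowest Cy5 level among detected probes and the probe's own. The rule named called probes detected on all 4 arrays, the 6 largest over the reference, 5 per genotype detected in that genotype alone, and overlapping probes. The probes and lists were chosen with earlier results of these data known. The 15 marker and pathway lists, among them the defining markers of sweat gland and of other footpad tissues, need gene names and were not used here, so the tissue labels and the level of Eda were not checked. Precision is limited by the number of arrays. Other background corrections, normalizations, filters, priors, the replicate block and left-out samples were tried as alternatives.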

Additional observations from a re-analysis of the deposited data

How the results depend on the processing

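All 11 called probes kept their direction in every alternative that tested them, but counts moved. For 6 of the 11, which passed the filter through WT alone, the choice of probes favoured a fall in advance. Every alternative used the same 4 arrays or some of them. Falls and rises numbered 29 and 7 of the 727 probes with processed signals at the 75th percentile (379 and 32 over all tested probes), 14 and 2 for the log2 ratio (385 and 20), 4 and 3 for Cy3 set to equal medians (270 and 10), 5 and 2 with no filter (242 and 17), 18 and 5 with a robust trend (401 and 34), and 22 and 5 with an offset of 16, chosen after seeing the data (428 and 35). Where fewer of the 727 were tested, falls and rises were 17 and 0 of 415 for the authors' values (201 and 12 over all), 1 and 4 of 479 with the filter on all 4 arrays (302 and 22), and 3 and 1 of the 97 whose Cy5 was not positive and significant. The median difference of the 727 probes, −0.013 log2, was 0.033 at the 75th percentile, 0.074 with equal medians, 0.018 with the filter on all 4 arrays and −0.13 in the authors' table. With left-out samples falls ranged from 3 to 27 and rises from 0 to 43 among the 727, and from 108 to 1381 and from 1 to 1294 over all tested probes, and the median difference from −0.057 to 0.010 log2. In the authors' table Z00025980-1 (0.51 log2), Z00026888-1 (−0.14 log2) and Z00048880-1 (0.12 log2) turned sign, none past the threshold. The cause of these shifts was not tested. The labels give both genotypes the numbers 1 and 2, and same-numbered samples deviated together little (r = 0.18 across probes, 2 pairs). They share only a number. With the replicate block 18 of the 727 fell and 6 rose, and over all probes 527 fell and 85 rose. The alternative on gene matches was not run. Probes near the detection limit give sizes that depend on background handling, and 2 samples per genotype limit every call.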
